A study of Mus musculus with 2 samples.

Results

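In cultured mouse lung fibroblasts, a small set of cells was chosen by a high summed level of 5 stress genes, Ddit3, Trib3, Chac1, Derl3 and Chchd10. Members were the cells at or above the 97th percentile of their own library for the summed unique molecular identifiers (UMIs, 1 per captured transcript molecule) of these genes per 10,000 UMIs of the cell. Cells were eligible with at least 5000 UMIs and at most 20% of UMIs from mitochondrially encoded genes. The rule gave 123 of 4077 eligible control cells and 202 of 6708 eligible stimulated cells, in all 325 of the 12714 barcodes of the series. Because members were chosen by measured values, those of the 5 genes in these same cells, every contrast between members and other cells is a description and carries no test. The share of members in each library is set by the rule and is not a result.

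The series holds 2 droplet 3′ single-cell RNA libraries, 1 per group, of wild-type C57BL/6 lung fibroblasts that were grown on plastic from a whole-lung cell suspension and used at passage 3. The stimulated library came from cells treated for 14 days, and the control library from cells given vehicle in the same medium for as long. Agents named for the series are rosiglitazone at 10 µM, which activates PPARG, rhBMP4 (a recombinant bone morphogenetic protein) at 4 µM and SB4315442 at 1 µM, alone or combined, without a statement of which the stimulated library received, and medium with 10% serum or with 1% ITS+3, a supplement used towards a lipofibroblast-like state. With 1 library a group, stimulation and library cannot be told apart and no test across samples exists, and the 95% intervals given here cover counting error only unless stated otherwise. The labels name neither the number nor the sex or age of the mice.

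The integrated stress response starts when kinases such as PERK, which senses unfolded protein in the endoplasmic reticulum (ER), and GCN2, which senses missing amino acids, phosphorylate the translation factor eIF2α. General translation slows while the transcription factor ATF4 is made, and ATF4 turns on CHOP (encoded by Ddit3), the pseudokinase TRIB3, the glutathione-degrading enzyme CHAC1 and genes for amino acid supply. The ER has further branches through ATF6 and XBP1, which raise chaperones and the machinery that exports misfolded protein for degradation, to which Derl3 belongs. CHCHD10 is a protein of the mitochondrial intermembrane space. Collagen-secreting fibroblasts depend on this folding machinery.

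Stretches of promoter are shown for genes that carry the description, because the classical DNA elements of both branches could be looked up in them. Sequences are from RefSeq on build GRCm38.p6 and run 5′ to 3′ on the strand of the gene, and capitals mark matches on either strand. The first 3 hold the C/EBP-ATF response element, searched as TGATGNAA, which 3.97% of 32851 promoters of 300 bases held.
Chchd10 (chr10:75933025-75933084, + strand): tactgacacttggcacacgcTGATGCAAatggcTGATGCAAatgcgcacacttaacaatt
Slc7a11 (chr3:50443637-50443696, - strand): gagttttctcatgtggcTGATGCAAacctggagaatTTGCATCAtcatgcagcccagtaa
Chac1 (chr2:119351023-119351082, + strand): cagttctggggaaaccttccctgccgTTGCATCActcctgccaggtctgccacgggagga

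The Chchd10 and Slc7a11 windows each held 2 matches and the Chac1 window 1. Trib3 held 1 match, which lay 15 bases into the transcribed side of its start. Ddit3 held no match in its window of 250 bases before and 50 after the start. The next 3 stretches hold the ER stress response element, searched as CCAAT and CCACG with 9 bases of any kind between them, which 0.119% of promoters held.
Hspa5 (chr2:34772004-34772063, + strand): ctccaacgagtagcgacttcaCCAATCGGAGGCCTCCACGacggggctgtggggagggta
Creld2 (chr15:88819499-88819558, + strand): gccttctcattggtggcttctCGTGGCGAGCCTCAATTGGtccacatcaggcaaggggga
Derl3 (chr10:75893221-75893280, + strand): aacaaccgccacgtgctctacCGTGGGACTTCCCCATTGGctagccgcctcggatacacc

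The last stretch holds the ER stress response element II, searched as ATTGG and CCACG with 1 base between them, which 0.0365% of promoters held and whose letters overlap those of the element above.
Herpud1 (chr8:94386352-94386411, + strand): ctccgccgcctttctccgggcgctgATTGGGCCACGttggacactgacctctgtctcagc

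A match is a description of letters and not a binding site. The unfolded protein response element, searched as TGACGTGG on both strands, was in 0.676% of promoters and in none of the 5 rule genes or Slc7a11.

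Ddit3 and Chchd10 supplied most of the rule's UMIs, in different proportions in the libraries. Levels are given as CPM, the UMIs of a gene per 1000000 UMIs pooled over a set of cells. Control members held Ddit3 at 723 CPM against 152 CPM in the other control cells, and stimulated members held it at 602 CPM against 55.0 CPM. Chchd10 stood at 685 CPM in control members and 86.2 CPM in other control cells, and at 204 CPM in stimulated members and 4.71 CPM in other stimulated cells. Chchd10 thus made up 44.5% of the rule's UMIs in control members and 21.4% in stimulated members, and Ddit3 47.0% and 63.3%. Both genes chose the cells, so these levels describe the selection.

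The 3 rarer rule genes followed in the same direction. Trib3 was at 98.2 CPM against 35.6 CPM in the control library and at 88.8 CPM against 7.46 CPM in the stimulated library. Chac1 was at 21.9 CPM against 12.5 CPM and at 27.1 CPM against 4.96 CPM. Derl3, an ER protein that helps export misfolded glycoprotein and that is also known as a gene of secretory cells, was at 10.2 CPM against 0.852 CPM and at 29.6 CPM against 0.938 CPM. These member levels rested on 27 and 106 UMIs of Derl3. The median member was at 0 in both libraries, and 11 of 123 control members held any Derl3. The members just inside the cutoff had a sum of 11.06 per 10,000 UMIs in the control library and 5.30 in the stimulated library, and the cells just outside had 11.04 and 5.26. The stimulated cutoff was therefore far lower than the control cutoff. The median sum of the other cells was 0.507 per 10,000 UMIs in the stimulated and 2.26 in the control library.

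**Figure D1:**
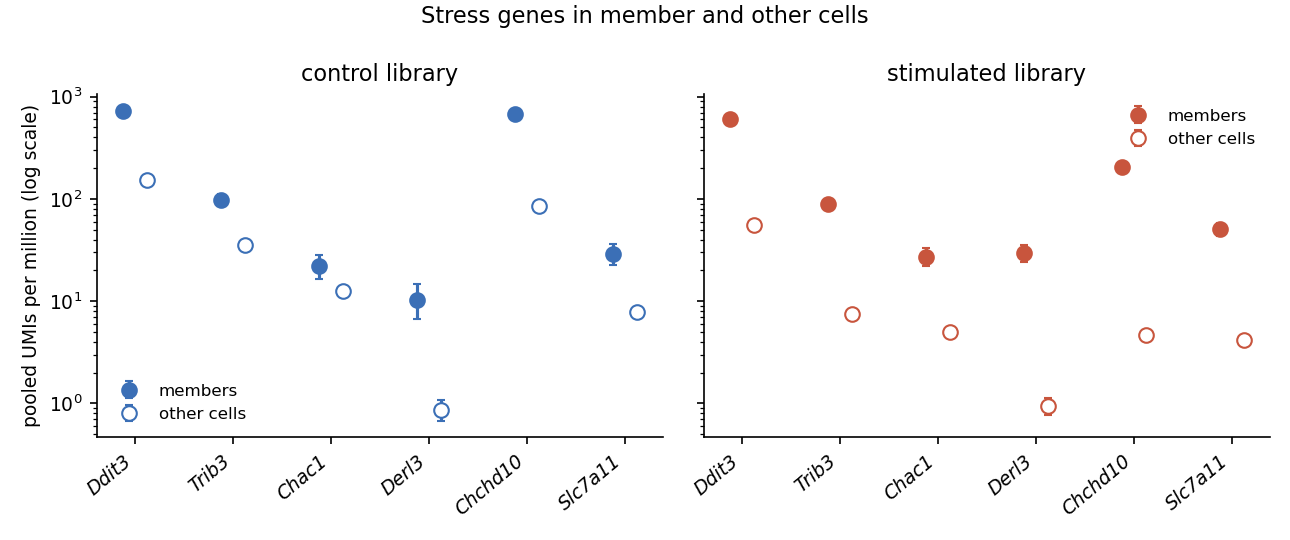
Pooled level of the 5 rule genes and of Slc7a11 in members (filled) and other eligible cells (open) of each library, in CPM on a log scale, with 95% Poisson intervals. All 6 genes were higher in members than in other cells of both libraries, and Chchd10 in other cells was at 86.2 CPM (control) and 4.71 CPM (stimulated).

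Slc7a11, the cystine importer that feeds glutathione synthesis and a known ATF4 and NRF2 target, was not in the rule. Control members held it at 28.7 CPM and other control cells at 7.76 CPM, a fold of 3.70 (2.88 to 4.69). Stimulated members held it at 50.3 CPM and other stimulated cells at 4.14 CPM, giving 12.1-fold (10.2 to 14.4). The 81 control cells between the 95th and 97th percentile of the rule sum, just under the cutoff, held Slc7a11 at 0.344 per 10,000 UMIs. Control members were at 0.235 between the 97th and 99th percentile and at 0.403 above, so the higher control level was not particular to members. In stimulated cells the same bins were at 0.175, 0.241 and 1.01. Most single members had no Slc7a11 UMI: the median member was at 0 in both libraries, and the highest member reached 6.77 per 10,000 UMIs among control and 23.1 among stimulated members.

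To see how far the rule genes went together, each was left out of the rule in turn and compared between the cells so chosen and the rest. Left-out Ddit3 was 2.36-fold higher (2.21 to 2.51) in the control library and 6.74-fold higher (6.37 to 7.14) in the stimulated library. Left-out Chchd10 was 2.96-fold higher (2.74 to 3.2) and 20.2-fold higher (18.0 to 22.7). Trib3 gave 2.44 and 8.96, and Derl3 gave 9.66 and 14.9. Chac1 was 4.48-fold higher (3.51 to 5.65) in the stimulated library, while its control fold was 1.25 (0.892 to 1.70). For each of the 5 genes the left-out fold was larger in the stimulated than in the control library, and the difference was not tested. The rest of the cells held less Ddit3, Trib3, Chac1 and Chchd10 in the stimulated than in the control library, and more Derl3. Left-out Chchd10 was at 293 CPM over 98.9 CPM in the control and at 139 CPM over 6.85 CPM in the stimulated library. Chosen stimulated cells also held less Trib3 than chosen control cells, 71.5 against 87.7 CPM, and more Ddit3 (413 against 383 CPM), Chac1 and Derl3. A larger fold thus need not mean a higher level in the chosen cells. Without Ddit3 in the rule, 77 of the 123 control members were chosen again, and without Chchd10 68 of 123, against 130 and 171 of 202 stimulated members.

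A single cutoff for both libraries gave a different view of how common such cells were. At or above the control cutoff of 11.05 per 10,000 UMIs lay 3.02% of eligible control cells and 51 of 6708 eligible stimulated cells, 0.760% (exact binomial interval 0.567 to 0.998%). With every cell thinned to 5000 UMIs the shares were 4.32% and 0.835%. The stimulated share was 0.388% with Ddit3 out of the sum and 1.49% with Chchd10 out of it, each time at the control library's own 97th percentile of that sum. Stimulated cells were thus rarer above a shared cutoff under each of these settings, which are not replicates.

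The label of fibroblasts was checked against 12 markers, whose summed level was 11617 CPM in control members and 12693 CPM in the other control cells, and 5307 and 6448 CPM in the stimulated library. A count per cell, of at least 5 UMIs from at least 3 markers at 5000 UMIs, was met for fibroblast markers by 123 of 123 and 200 of 202 members, and also by 3948 of 3954 other control cells and 6504 of 6506 other stimulated cells. Most cells with macrophage markers met it too, so it does not establish identity. Macrophage markers by the same count marked 0 of 123 and 0 of 202 members, which allows a share of up to 2.95% and 1.81% (exact binomial bounds), and 135 of 3954 other control cells. Of 12 macrophage markers, Adgre1 was at 0 in control members and 8 were at 0 in stimulated members, and their sum was 80.4 CPM in control members against 767 CPM in other control cells. Mesothelial markers marked 1 member of each library, and adipocyte markers 1 stimulated member and no control member, with all 6 adipocyte markers at 0 in control members. All 7 B and plasma cell markers were at 0 in the members of both libraries. The fibroblast marker Lum was at 0 in stimulated members, and the other 11 were found in the members of both libraries.

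Depth and RNA quality were close between members and other cells. The median member held 21116 UMIs in the control library, from 5890 to 53425, against 20848.5 in other cells, and 16366 in the stimulated library, from 5488 to 63178, against 16098. The median mitochondrial share was 1.44% in members and 1.37% in others of the control library, and 1.06% and 1.09% in the stimulated library. Ribosomal protein genes took 35% of member UMIs and 33.7% of others' UMIs in the control, and 36.3% and 35.8% in the stimulated library. The whole libraries held 5016 barcodes with 88876791 UMIs and 7698 barcodes with 117381412 UMIs. They shared 53 barcode sequences, and no member barcode was found in both libraries. No doublet caller was run. Without the deepest 5% of cells 83 genes were higher and 282 lower in control members, and 234 and 260 in stimulated members, close to the counts over all cells given next.

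Across the transcriptome, genes with at least 20 CPM over the eligible cells of a library were compared, and 1.5-fold served as the size that counts. In the control library 89 of 4666 genes were higher in members (1.91%) and 260 were lower (5.57%). In the stimulated library 225 of 4501 genes were higher (5%) and 262 lower (5.82%). The median log2 fold of all genes compared was -0.02 and 0.03. Of the 4189 genes compared in both libraries, 45 were higher in members of both, which is 61.6% of the 73 higher in the control and 20.7% of the 217 higher in the stimulated library. Lower in both were 58 genes, 31.4% of 185 and 30.4% of 191. With Chchd10 out of the rule, 83 genes were higher and 143 lower in the control library, so that 36.7% of the genes past 1.5-fold were higher in place of 25.5%. With Ddit3 out of the rule the counts were 46 and 235, and 16.4% were higher.

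ER chaperones and folding enzymes were higher in members of both libraries for many of the list's genes. Of 15 measured members of the list, 8 were at least 1.5-fold higher in control members and 12 in stimulated members, and none was lower. The list's median log2 fold was 0.59 for control members and 1.48 for stimulated members. Hspa5, which encodes the chief ER chaperone BiP, was at 521 CPM in control members against 172 CPM in other control cells, and at 990 CPM in stimulated members against 175 CPM. Its folds were 3.02 (2.86 to 3.2) and 5.65 (5.45 to 5.86). Its promoter is one of those shown above with the ER stress response element.

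Partners of BiP showed the same order. Sdf2l1, which works with BiP and its co-chaperones, was at 210 CPM against 70.7 CPM and at 510 CPM against 99.4 CPM, folds of 2.97 and 5.13. Creld2, an ER protein with roles in disulfide chemistry, was at 136 CPM against 48.6 CPM and at 315 CPM against 63.8 CPM. Pdia4, a protein disulfide isomerase, was at 252 CPM against 88.1 CPM and at 497 CPM against 114 CPM. Hsp90b1, the ER form of HSP90, was 1.90-fold (1.80 to 2.0) and 3.59-fold (3.46 to 3.71) higher. Manf, a small ER-resident and secreted protein, differed between the libraries: at 1.41-fold (1.33 to 1.5) it stayed under 1.5 in control members and reached 3.15-fold (3.05 to 3.25) in stimulated members.

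These pooled folds came from unlike distributions over cells. In the control library the Hspa5 level of single members ran from 0 through a median of 1.39 to 76.4 per 10,000 UMIs, against a median of 0.816 in other cells. Of control members, 31 of 123 lay above the 90th percentile of the other cells (25.2%), so that a minority carried much of the pooled level. In the stimulated library the median member was at 4.35 against 0.899 per 10,000 in other cells, and 122 of 202 members (60.4%) lay above the others' 90th percentile. Sdf2l1 gave 29 of 123 (23.6%) and 141 of 202 (69.8%) in the same count, and Manf 23 of 123 (18.7%) and 123 of 202 (60.9%). Members and other cells overlapped for each of these genes.

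A further list holds the machinery that moves protein across the ER membrane and misfolded protein out of it. Of 12 measured genes of ER degradation and translocation, 3 were higher in control members (Herpud1, Dnajb9 and Sel1l) and 9 in stimulated members, with median log2 folds of 0.36 and 0.79. Herpud1, which helps assemble the HRD1 ubiquitin ligase complex, was at 121 CPM against 49.0 CPM and at 176 CPM against 33.8 CPM, folds of 2.47 and 5.21. Dnajb9, a co-chaperone of BiP, was 2.14-fold and 3.40-fold higher. Sel1l, the adaptor of HRD1, was 1.96-fold (1.73 to 2.22) and 3.17-fold (2.91 to 3.45) higher. Derl1, of the Derlin family like Derl3, had a control fold of 1.27 and a stimulated fold of 2.05, and Edem1, which helps route glycoproteins to degradation, had 1.3 and 2.01. Xbp1 itself was at 70.6 CPM against 68.5 CPM and at 120 CPM against 97 CPM, under 1.5-fold in both, and 3′ counts do not separate its spliced form.

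Transcription factors and regulators of the integrated stress response had smaller folds than the ER chaperones. Of 13 listed, 8 were measured in the control library and 1 of them was higher, Ppp1r15a, and of 6 measured in the stimulated library 4 were higher, with median log2 folds of 0.27 and 0.79. Atf4 was at 249 CPM in control members against 195 CPM, a fold of 1.28 (1.18 to 1.38), and at 285 CPM in stimulated members against 140 CPM, a fold of 2.03 (1.90 to 2.16). ATF4 is controlled mainly at translation, which counts of RNA do not show. Ppp1r15a, which recruits the phosphatase that resets eIF2α, was at 54.4 CPM against 28.0 CPM and at 52.5 CPM against 14.1 CPM, and in the stimulated library it lay under the 20 CPM filter. Nupr1, a stress-induced chromatin protein, was 1.35-fold and 2.44-fold higher, and Atf5 1.21-fold and 1.62-fold. The eIF2α kinases Eif2ak3 (PERK) and Eif2ak4 (GCN2) were near even, at folds of 1.28 (0.695 to 2.18) and 0.949 (0.515 to 1.61) in the control and 0.994 and 0.960 in the stimulated library, on 14 to 21 member UMIs each.

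Among effectors of the response, Gadd45a and Sqstm1 were the 2 of 8 measured genes higher in control members. Sqstm1, the autophagy receptor p62, was at 217 CPM against 92.2 CPM and at 161 CPM against 54.1 CPM, folds of 2.36 and 2.98. Gadd45a, a growth arrest gene, was 2.39-fold (1.99 to 2.84) and 3.43-fold (2.79 to 4.19) higher, and was under the 20 CPM filter in the stimulated library. Of 5 measured in the stimulated library 3 were higher, Sqstm1, Ero1l and Xpot. Ero1l, the oxidase that recharges protein disulfide isomerases, was 1.31-fold higher in control and 2.75-fold higher in stimulated members. Cdkn1a, which encodes the cell cycle inhibitor p21, was at 1.19 and 0.982, and none of the 5 measured apoptosis genes passed 1.5-fold in either library.

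Amino acid supply genes passed 1.5-fold mostly in stimulated members. Of 7 measured genes of amino acid and one-carbon synthesis, 1 was higher in control members (Got1) and 6 in stimulated members, with median log2 folds of 0.05 and 0.96. Asns, asparagine synthetase and a textbook ATF4 target, was at 92.1 CPM against 92.8 CPM in the control library and at 85.2 CPM against 47.3 CPM in the stimulated library. Its folds were 0.993 (0.871 to 1.13) and 1.80 (1.60 to 2.02). Members of both libraries were thus at close levels of Asns, and it was the other stimulated cells that stood lower. Phgdh, the first enzyme of serine synthesis, was 1.04-fold and 1.95-fold higher, and Psph, the last, 1.28-fold and 2.21-fold. Mthfd2, a mitochondrial one-carbon enzyme, was 0.895-fold (0.795 to 1.00) for control and 1.87-fold (1.69 to 2.07) for stimulated members.

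Amino acid transporters and tRNA synthetases followed the same contrast. No transporter of 6 measured passed 1.5-fold in control members, and 2 of 3 did in stimulated members. Slc3a2, the heavy chain that pairs with Slc7a11, was 1.23-fold and 1.67-fold higher. Of the tRNA synthetases, 1 of 20 was higher in control members and 9 of 19 in stimulated members, with median log2 folds of 0.09 and 0.54. Wars, tryptophanyl-tRNA synthetase, was the exception in the control, at 66.4 CPM against 35.6 CPM (1.87-fold), and stood at 2.74-fold in the stimulated library. Of 12 measured mitochondrial stress genes none was past 1.5-fold in control members and 2 were in stimulated members, the protease Lonp1 (1.25-fold and 2.55-fold) and the chaperone Hspa9 (1.16-fold and 2.02-fold). Chchd2, the close relative of Chchd10, was at 1.01 and 0.959, although 22.7% of its sampled 3′ end windows were shared with another gene.

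**Figure D2:**
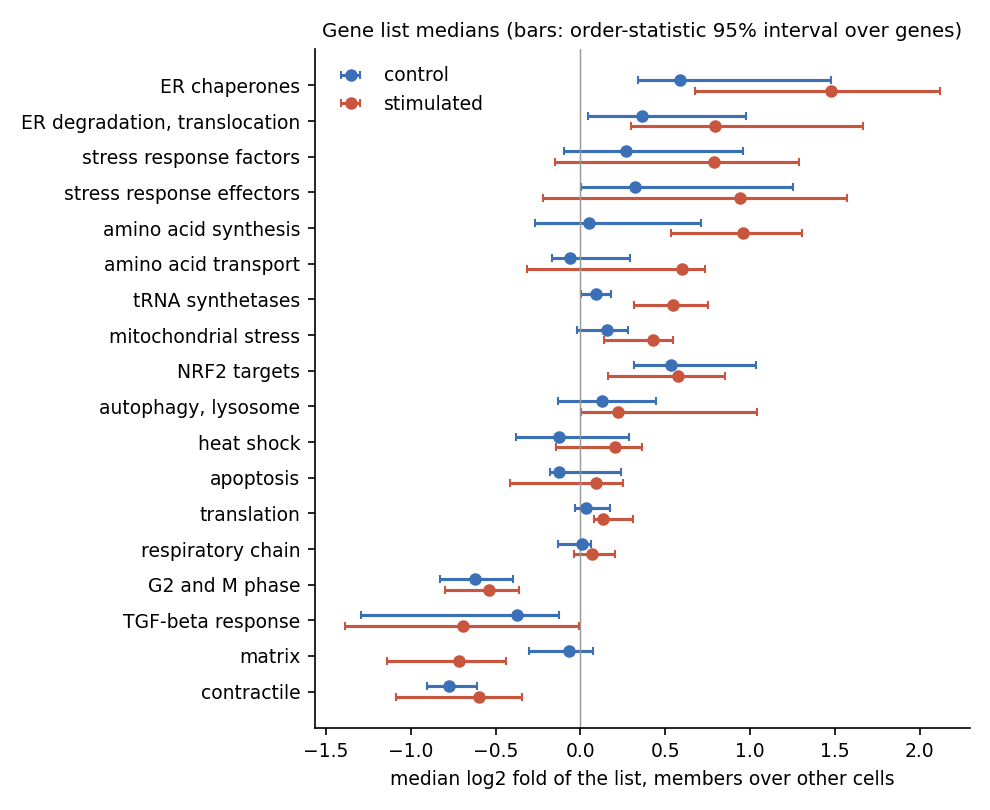
Median log2 fold of members over other cells for 18 gene lists in the control (blue) and stimulated (red) library, rule genes left out. Bars are order-statistic 95% intervals over the genes of a list, which for the shortest lists are the full range. ER chaperones stood at 0.59 and 1.48, amino acid synthesis at 0.05 and 0.96, and contractile genes at -0.78 and -0.60.

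Targets of NRF2, the regulator of the antioxidant response, were higher in members for 7 genes of the list in each library. Of 15 measured, 7 were higher in control members, and in stimulated members 7 were higher and 1 (G6pdx) lower, with median log2 folds of 0.53 and 0.58. Hmox1, heme oxygenase, was at 211 CPM against 77.3 CPM and at 167 CPM against 87.1 CPM, folds of 2.73 (2.50 to 2.98) and 1.92 (1.76 to 2.08). The 134 stimulated cells between the 95th and 97th percentile of the rule sum, just under the cutoff, held Hmox1 at 2.27 per 10,000 UMIs. Stimulated members held it at 1.56 between the 97th and 99th percentile and at 1.87 above. Gclm, a subunit of the first enzyme of glutathione synthesis, was 2.25-fold and 2.11-fold higher, and Srxn1, sulfiredoxin, 2.15-fold and 2.05-fold. The ferritin heavy chain gene Fth1 differed in direction at a smaller size, 1.56-fold (1.53 to 1.58) for control and 0.837-fold (0.830 to 0.845) for stimulated members. Ftl1, the ferritin light chain, shared 93.2% of its sampled 3′ end windows with another gene and is uncertain.

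Genes of contraction were lower in members. Of 17 measured contractile genes 15 were lower in control members, and of 16 measured in the stimulated library 8 were lower, with median log2 folds of -0.78 and -0.60 and none higher. Acta2, smooth muscle actin, was at 1455 CPM in control members against 3237 CPM in other control cells, and at 637 CPM in stimulated members against 1106 CPM. Its folds were 0.449 (0.435 to 0.464) and 0.576 (0.553 to 0.601). The median control member held 9.26 per 10,000 UMIs against 19.0 in other cells, and the median stimulated member 2.66 against 5.75. Cnn1, calponin, was at 171 CPM against 443 CPM and at 14.0 CPM against 38.4 CPM. Mylk, myosin light chain kinase, was at 0.344 and 0.463.

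Extracellular matrix genes were lower mainly in stimulated members. Of 18 measured, 3 were lower in control members and 12 in stimulated members, with median log2 folds of -0.06 and -0.71. Thbs1, thrombospondin 1, was at 2090 CPM against 3831 CPM and at 601 CPM against 1468 CPM, folds of 0.545 and 0.409. Col6a3, a collagen VI chain, was at 0.402 and 0.358. Mgp, matrix Gla protein, was 0.962-fold (0.940 to 0.984) for control and 0.427-fold (0.420 to 0.434) for stimulated members. Among genes of the TGF-beta response 4 of 10 were lower in control members and 6 of 8 in stimulated members.

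**Figure D3:**
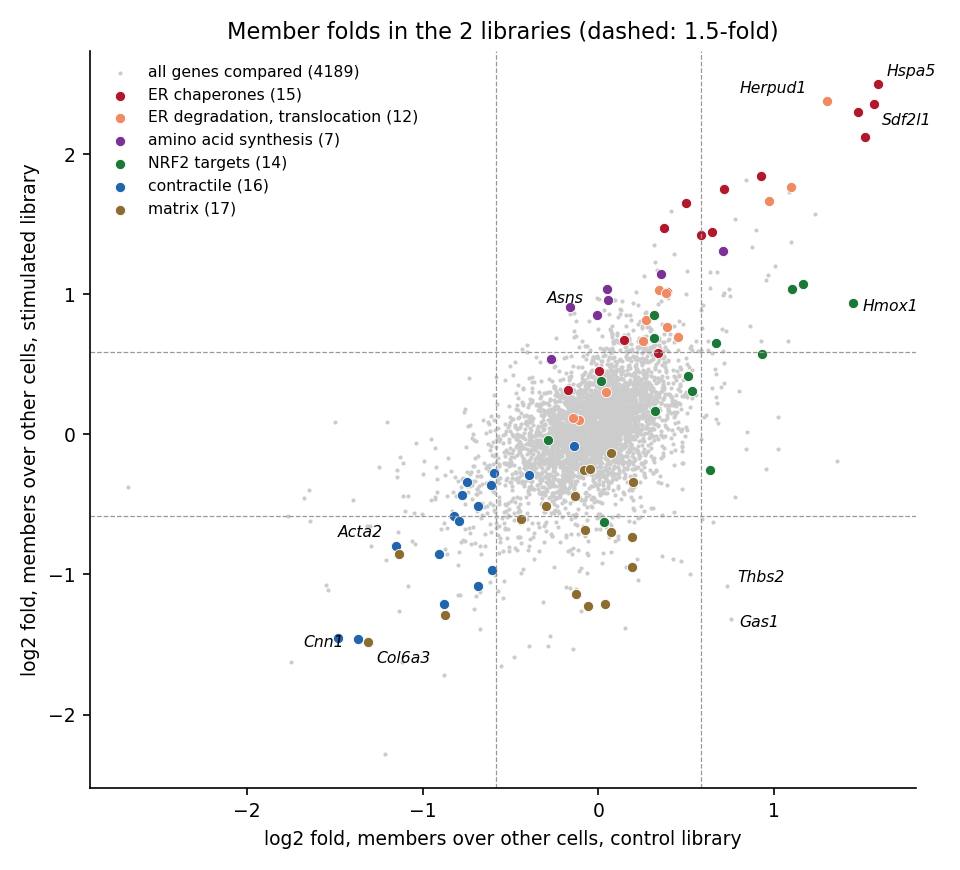
Log2 fold of members over other cells in the control (x) and stimulated (y) library for the 4189 genes compared in both, with 6 lists coloured and dashed lines at 1.5-fold. ER chaperones lie at the upper right, amino acid synthesis genes above the centre, contractile genes at the lower left, and most matrix genes below the centre.

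Other genes were among those with the largest or smallest folds in both libraries. Ormdl2, a regulator of sphingolipid synthesis in the ER membrane, was at 64.2 CPM against 30.2 CPM and at 88.8 CPM against 26.8 CPM. Htra1, a secreted serine protease, was 1.79-fold (1.52 to 2.10) and 3.52-fold (3.08 to 4.01) higher. Ctsl, the lysosomal protease cathepsin L, was 1.68-fold and 2.05-fold higher, and Blvrb, which reduces biliverdin and flavins, 2.14-fold and 2.59-fold. Among the lowest in both were Prelp, a small leucine-rich matrix protein (0.431 and 0.205), Fst, the activin antagonist follistatin (0.342 and 0.475), and Sdc4, a heparan sulfate proteoglycan (0.471 and 0.473). Their neighbours in rank, Crct1 (0.297 and 0.325) and Cemip (0.544 and 0.304), were lower in members too.

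The remaining lists had few genes past 1.5-fold. None of 22 respiratory chain genes and none of 10 mitochondrially encoded genes passed it in either library, and of 20 translation genes 0 and 2 were higher. Among heat shock genes 1 of 10 was higher in each library, Hspb8 at 1.64-fold and 1.51-fold, and 1 was lower in control members. Of 8 p53 targets 0 and 1 (Plk2) were higher. Immediate early genes had 1 of 11 higher in control members, and 1 of 14 higher and 3 lower in stimulated members, with the transcription factor Klf4 at 1.90-fold and 1.58-fold. Autophagy and lysosome genes had 2 of 12 and 2 of 11 higher, which were Sqstm1 and Ctsl.

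Further lists were lower, mixed or near the share of all genes. Over all genes compared, 5.57% were lower in control members and 5.82% in stimulated members. Sterol synthesis genes were lower in 4 of 10 in control members and 1 of 6 in stimulated members. Glycolysis and hypoxia genes were lower in 1 of 16 and 0 of 14, which is near or under the share of all genes. S phase genes were lower in 4 of 8 and 1 of 11, and G2 and M phase genes in 5 of 10 and 7 of 16. Chemokine genes had 2 higher and 2 lower of 6 in control members and 3 lower of 4 in stimulated members, with Ccl7 at 1.71 (1.56 to 1.88) and 0.734 (0.630 to 0.850). Interferon genes had 2 of 5 higher in control members and 1 of 3 lower in stimulated members. Cxcl14, a chemokine of stromal cells, was at 18.1 CPM in control members against 175 CPM in other control cells (0.103-fold, 0.0763 to 0.137) and at 3.91 CPM against 10.4 CPM in the stimulated library.

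Some genes stood apart between the libraries in how members compared with other cells. Ankrd1, a target of the mechanical YAP pathway, was at 50.2 CPM against 142 CPM in control members and at 51.9 CPM against 48.8 CPM in stimulated members. Inhba, which encodes an activin subunit, was at 0.433 and 1.06, and Cck, which encodes the peptide cholecystokinin, at 0.319 and 0.758. In the other direction, the growth factor gene Ptn was at 1.44 and 0.50 and the complement inhibitor gene Serping1 at 1.11 and 0.383. Ass1, of arginine synthesis, was at 2.57 and 0.877, with 45.5% of its sampled 3′ end windows shared with another gene.

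Fewer members than other cells were in the cell cycle by a count of 12 cycling genes. Thinned to 5000 UMIs, 7 of 123 control members held at least 5 UMIs of these genes, 5.69% (exact binomial interval 2.32 to 11.4%), against 17.0% of other control cells. In the stimulated library it was 17.8% (12.8 to 23.8%) of members and 27.6% of others. Without thinning the shares were 17.1% and 33.0%, and 41.1% and 50.3%. At 4 or 5 UMIs, next to the threshold, lay 2 control and 19 stimulated members. Top2a, which untangles replicated DNA, was at 21.9 CPM against 43.9 CPM and at 46.6 CPM against 69.1 CPM. Without the cycling cells 90 genes were higher and 243 lower in control members, and 239 and 282 in stimulated members.

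Several lists ran along the sum of the rule genes well before the cutoff in stimulated cells. ER chaperones stood at 35.5 UMIs per 10,000 in the lower 50% of stimulated cells, at 67.8 between the 95th and 97th percentile, at 87.4 between the 97th and 99th, and at 123 above. In control cells the same list was at 37.5, 48.1, 55.7 and 56.2. Amino acid synthesis genes over the same 4 bins were at 5.20, 9.28, 9.82 and 11 in stimulated cells, and at 7.48, 8.23, 8.35 and 7.29 in control cells. Matrix genes were at 186, 117, 106 and 82.6 in stimulated cells. Contractile genes were at 171, 120, 95.1 and 94.2 in control cells. In each of these 6 series the bin just under the cutoff lay between the lower 50% and the bin just above it. The control amino acid synthesis series did not rise steadily towards members. Its bins from the 50th to 75th, 75th to 90th and 90th to 95th percentile were at 8.71, 8.66 and 8.70, above both member bins.

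**Figure D4:**
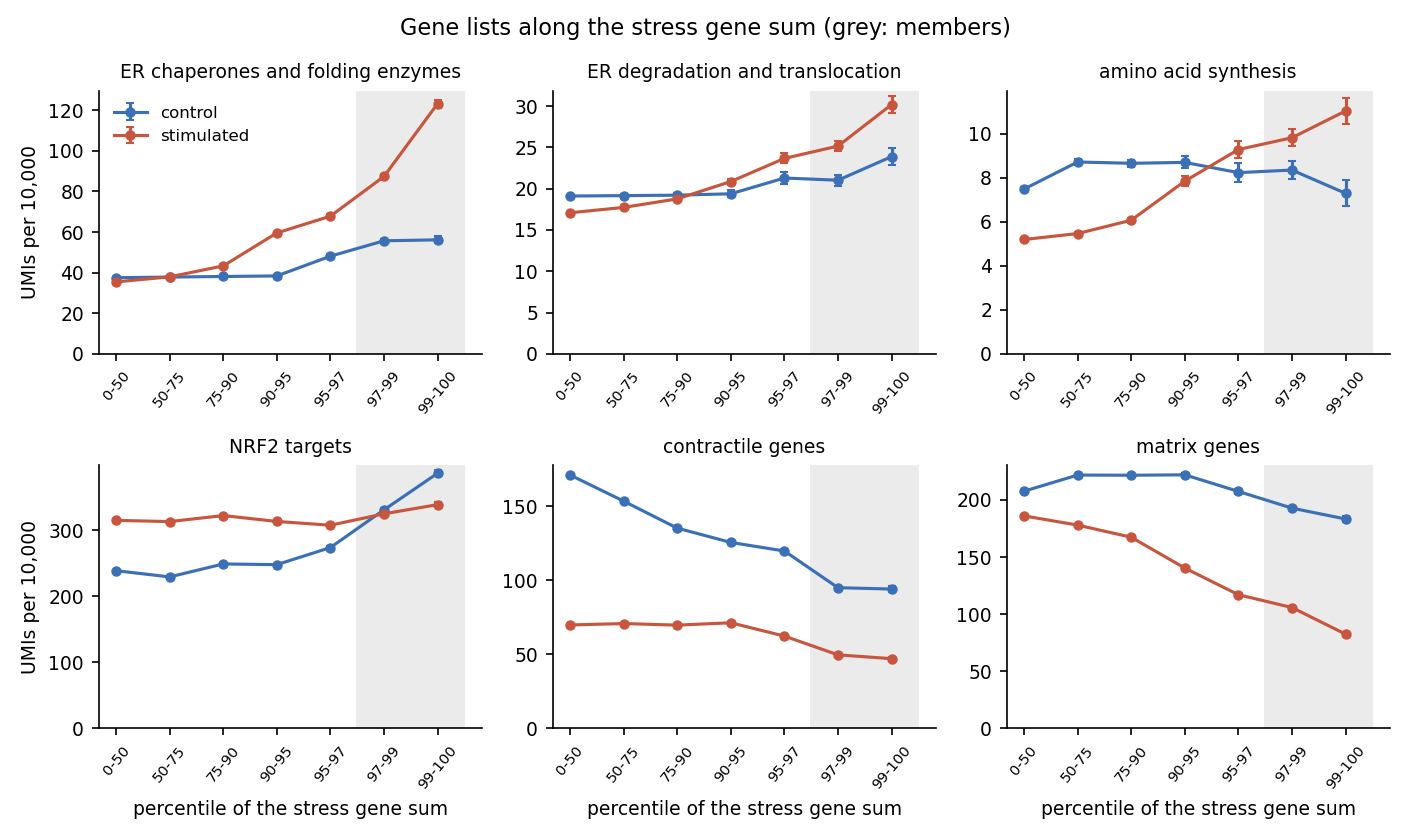
Summed level of 6 gene lists in UMIs per 10,000 in bins of cells ordered by the sum of the rule genes, for the control (blue) and stimulated (red) library, with 95% Poisson intervals and members in grey. ER chaperones reach 123 in the top bin of stimulated cells and 56.2 in that of control cells, and contractile genes of control cells lie between 171 in the first bin and 94.2 in the last.

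Members differed by which gene led their sum, a split chosen after the values were seen. In the control library 64 members held more Chchd10 than Ddit3 UMIs and 59 did not, and in the stimulated library 27 and 175. Control members led by Chchd10 held ER chaperones at 42.4 UMIs per 10,000 (41.3 to 43.5), close to the 38.0 of other control cells, while those led by Ddit3 held them at 70.5 (69.0 to 71.9). Hspa5 was at 2.43 and 8.24 per 10,000 in these control sets against 1.72 in other cells. Stimulated members did not show that gap: ER chaperones were at 118 in the 27 led by Chchd10 and at 96.4 in the 175 led by Ddit3, against 39.3 in other cells. Contractile genes were low in both control sets, at 95.5 and 94.1 against 157 in other cells. NRF2 targets were at 334 and 363 in the control sets against 239 in other cells. In the stimulated library they were at 394 in the members led by Chchd10, and at 318 in those led by Ddit3 against 315 in other cells. These sums weigh abundant genes most, and in stimulated members Fth1 stood at 13132 CPM and Ftl1 at 15710 CPM. Amino acid synthesis genes were at 6.77 (6.34 to 7.22) in control members led by Chchd10 and 9.38 (8.86 to 9.93) in those led by Ddit3, on either side of the 8.08 of other control cells. In the stimulated library the same list was at 9.41 and 10.4 against 5.63. With Ddit3 out of the rule, the control list median of ER chaperones was 0.26.

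**Figure D5:**
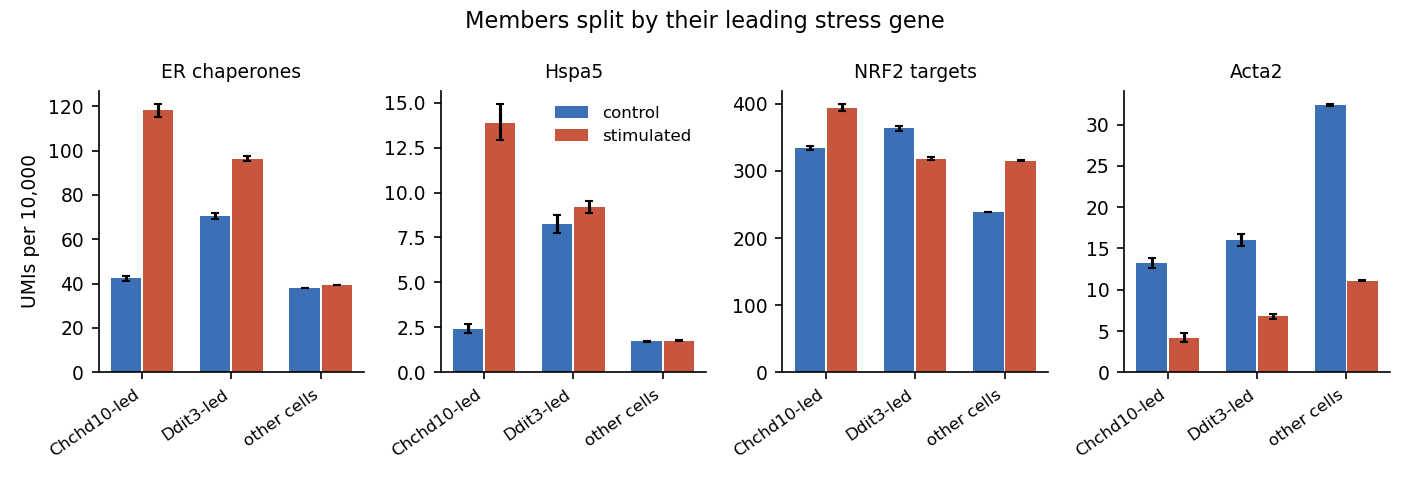
Level in UMIs per 10,000 of ER chaperones, Hspa5, NRF2 targets and Acta2 in members with more Chchd10 than Ddit3 UMIs, in members without, and in other cells, for the control (blue) and stimulated (red) library, with 95% Poisson intervals. Control members led by Chchd10 hold Hspa5 at 2.43 and stimulated members led by Chchd10 at 13.9, while Acta2 is lower than in other cells in both sets of both libraries.

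Set side by side, stimulated members held 397 of 4635 genes at least 1.5-fold higher than control members (8.57%) and 479 lower (10.3%). In the other cells the stimulated library held 278 of the same genes higher (6%) and 567 lower (12.2%). ER chaperones differed between these views: 12 of 15 were higher in stimulated than in control members, with a median log2 fold of 0.81, and 0 of 15 were higher in the other cells, with a median of 0.02. Hspa5 was 1.90-fold higher between members and 1.02-fold between other cells, and Manf 2.97-fold and 1.33-fold. The members of the libraries were chosen at unlike cutoffs, and with Chchd10 out of the rule the chaperone median was 0.62. Contractile genes were lower in the stimulated library in both views, 12 of 16 between members and 13 of 16 between other cells. Of 4 measured lipid genes 3 were higher in both views. Plin2, which coats lipid droplets, was 2.68-fold higher between members and 1.69-fold between other cells, and within the stimulated library it was 2.25-fold higher in members (154 CPM against 68.3 CPM). Of the rule genes, Ddit3 was at 0.832 between members and 0.362 between other cells, Trib3 at 0.905 and 0.209, Chac1 at 1.24 and 0.398, and Chchd10 at 0.297 and 0.0547. Derl3 went the other way, at 2.90 between members and 1.10 between other cells.

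Members lay partly together when cells were clustered without the rule genes. The 15 nearest neighbours of each member were sought over the cells of both libraries. Of the neighbours of control members 16.8% were members of either library, and of those of stimulated members 32.2%. Members made up 3.02% of control and 3.01% of stimulated eligible cells. Most of the 16 clusters held cells of nearly a single library. A control cluster of 1798 cells held 71 of the 123 control members, and a stimulated cluster of 1689 cells, with Ddit3 among its 10 leading genes although left out of the clustering, held 102 of the 202 stimulated members. Members made up 3.95% and 6.04% of these clusters. The highest share among clusters of at least 50 cells of a library was 7.97%, in a stimulated cluster of 301 cells with Hspa5 among its 10 leading genes. A control cluster of 310 cells, also with Hspa5 among its leading genes, had 5.16%. Members were a minority of each of these clusters. In those of 1798, 1689 and 310 cells the number of members set by the rule made this outcome certain.

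The promoter elements were also counted over the genes past 1.5-fold in both libraries. Of 45 genes higher in members of both, 39 had a promoter entry. The ER stress response element was in 5 of these 39 (Creld2, Dnajc3, Hsp90b1, Hspa5 and Pdia6), against 0.244% of the 3278 genes compared in both libraries with an entry. The C/EBP-ATF response element was in 3 of 39 (Ctsl, Got1 and Herpud1) against 2.26%, and the ER stress response element II in 2 of 39 (Herpud1 and Nucb1) against 0.153%. Of the 36 genes lower in both with an entry, none held any of the 4 elements. The unfolded protein response element was in none of the 39, against 1.37% of the genes compared in both. These counts describe letters in windows of 300 bases and were not tested.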

How the data were processed

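The files hold UMI counts per gene and cell barcode for 27998 genes, deposited by the authors as unnormalized whole-number matrices. Cell Ranger 1.3.1 and Seurat 3.0.0 are named in the submitters' processing notes, while the matrices give software version 3.0.2, per the file headers. The chemistry is Single Cell 3′ v2, per the labels' protocols. Genome build, annotation and barcode filter were not given in the sources used here.

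Members, gene lists and markers were chosen with earlier results of these data known. Counts were summed over members and over other eligible cells of a library, and folds carry exact conditional Poisson 95% intervals. Pooled sums weight a cell by its UMIs. Genes of at least 20 CPM were compared, rule genes left out, and 1.5-fold was used as the size called. Folds against a pool with no UMI used a floor of 3 counts. The calculation was tested on simulated data.

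Genes named are the rule genes and markers, the 20 highest and 12 lowest in both libraries, and all genes of 5 stress lists. Added to these are the genes with the 5 largest and 5 smallest ratios between the libraries. Each list also gave its 3 most abundant genes and the gene with its largest fold in either direction. Clustering used 2000 variable genes without the rule genes, 30 principal components, 15 neighbours and Leiden at resolution 0.5. Doublets remain in the data. Near copies were sought with minimap2 2.31 in windows of 90 bases of the last 400, allowing 2 mismatches. Tools were Python 3.11.15, numpy 2.4.6, scipy 1.17.1, pandas 2.3.3, scikit-learn 1.9.0, leidenalg 0.10.2 and matplotlib 3.10.9.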

Additional observations from a re-analysis of the deposited data

Results flagged for a closer look

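Of the genes compared in both libraries, 4 were at least 1.5-fold higher in control members and at least 1.5-fold lower in stimulated members, each against other cells of the same library, and none showed the reverse. The difference was not tested, since each group is a single library. The 4 were 5.48% of the 73 genes higher in control members. Of all 4501 genes compared in the stimulated library 5.82% were lower, so the overlap was close to the share of all genes. Ccl2, a monocyte chemokine, was at 102 CPM against 64.5 CPM in the control library and at 43.6 CPM against 67.3 CPM in the stimulated library, so that its stimulated fold divided by its control fold was 0.412. Gas1, a membrane protein linked to growth arrest, was at 53.2 CPM against 31.5 CPM and at 25.7 CPM against 64.0 CPM, a ratio of 0.238. Mt1, a metal-binding metallothionein, was at 4632 CPM against 3069 CPM and at 9800 CPM against 14872 CPM, a ratio of 0.437. Thbs2, thrombospondin 2, was at 113 CPM against 68.2 CPM and at 29.6 CPM against 62.8 CPM, a ratio of 0.284. By single cells, 11 of 123 control members (8.94%) lay above a Ccl2 level that 10.0% of other control cells exceeded. The higher pooled Ccl2 level was thus not general among control members. In the same count Gas1 gave 13.0%, Mt1 22.8% and Thbs2 18.7% of control members. Mt2, the relative of Mt1 on the metallothionein list had a control fold of 1.94 and a stimulated fold of 0.842, so that 2 of 2 measured metallothioneins were higher in control members and 1 of 2 lower in stimulated members.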

How the results depend on the processing

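No paired analysis was possible because each group is 1 library, and for the same reason no replicate could be left out. Members at the 95th percentile gave 57 genes higher and 160 lower in the control and 148 and 174 in the stimulated library. Members at the 99th gave 191 and 452, and 379 and 459, with a stimulated amino acid transport median log2 fold of 0.80 and an ER chaperone median between members of 1.34. A 2-fold threshold gave 20 and 70, and 49 and 68. Genes of at least 5 CPM gave 345 higher and 729 lower, 524 and 636, and 1118 and 1127 for stimulated over control members, with an amino acid transport median of 0.83. Without a CPM filter there were 2021 and 1578, and 2178 and 1500, so that 56.2% and 59.2% of the genes called were higher in place of 25.5% and 46.2%, and that median was 0.87. With genes of mitochondrial origin and of ribosomal proteins out of the totals, 163 genes were higher in control members and 650 in stimulated over control members, with more genes passing the filter. Without Ddit3 in the rule, 46 genes were higher in control members, their ER chaperone median was 0.26, and 0.388% of stimulated cells lay above the control cutoff. Without Chchd10, 143 genes were lower in control members, the ER chaperone median between members was 0.62, and that share was 1.49%. Thinning to 5000 UMIs put 4.32% of control cells at or above the cutoff, where tied values are common. The cause of the other differences was not tested.

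Among folds of single genes 5513 lay within the counting interval of the main fold and 1015 lay outside it. A further 4 were reversed, all in control members on few UMIs. A reversal was looked for only where the main fold was past 1.5-fold, so smaller folds may have changed direction. With thinning Atf3 was at 0.821 and Slc7a6 at 1.12, and Slc7a3 was at 0.991 when cells were chosen on 50% of the UMIs and measured on the rest, and at 0.971 without Ddit3. Of the medians of the stress lists 288 were within the spread and 6 were not. Few UMIs in members limit genes under 20 CPM, such as Chac1 and the eIF2α kinases. Leaving out cells with adipocyte markers, an alternative chosen after seeing the data, gave 89 genes higher and 260 lower in control members, and 222 and 260 in stimulated members.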
